A study of Drosophila melanogaster with 7 samples.

Results

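Imd signalling components were taken as the 7 genes imd, Dredd, Tak1, key, ird5, Iap2 and Rel, found by their symbols among the 14804 genes of each table. Their RNA was measured in the fat body of wandering Drosophila melanogaster larvae, in 3 RasV12 libraries (offspring of Bx Gal4 crossed to UAS-RAS V12) and 3 control libraries (offspring of Bx Gal4 crossed to W1118). Both groups carried the driver, and only the RasV12 group carried the transgene for a dominant active form of Ras. The driver works in wing imaginal discs and salivary glands, so the fat body was measured as a tissue that responds to a growth elsewhere in the larva. Each library held fat bodies pooled from 40 larvae and dissected without gonads. The sex and the age in days of the larvae are not given in the labels.

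The Imd pathway is the arm of the Drosophila humoral immune response that responds to peptidoglycan of the DAP type, found in most Gram-negative bacteria, and the fat body is its main effector organ. A peptidoglycan receptor at the membrane or in the cytoplasm recruits the adaptor Imd, which is cleaved by the caspase Dredd and ubiquitinated by Iap2. The kinase Tak1 then activates the IKK complex of Ird5 and Key, and the NF-kappaB factor Relish, the product of Rel, is cleaved and enters the nucleus, where antimicrobial peptide genes are transcribed. These steps act on proteins, whereas the values given here are RNA levels. Rel is itself one of the genes that the pathway is known to induce.

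The level of a gene is given as FPKM, a fragment number corrected for exon length and for the mapped reads per library, so that levels of different genes can be set side by side. Between libraries, scaled FPKM is used, in which each library was brought to the same 75th percentile. For each difference, limma was fitted on log2(scaled FPKM + 1) over the whole table, which left 7575 genes at a mean FPKM of 1 or more. Differences are given as RasV12 minus control, and this scale understates the change of low genes. A gene was called at a Benjamini-Hochberg adjusted p under 0.05 and a change over 2-fold. The labels do not say that the replicates of a group came from separate crosses, so p-values measure only the spread between these libraries. In bulk tissue, fewer cells of a type and less RNA per cell cannot be told apart.

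The tables gave no counts, but the bounds beside each FPKM imply 4649276, 7137312 and 7305778 fragments in RasV12 libraries 1, 2 and 3 and 6271146, 7327931 and 2900626 in control libraries 1, 2 and 3. RasV12 library 2 listed the most genes above 0 (11052, against 8283 to 10233 in the other 5 libraries). Its summed scaled FPKM of 9 testis markers was 150, against 15.4 and 26.5 in the other RasV12 libraries and 1.94 to 7.32 in the controls. The 6 fat body markers, among them the genes of the larval serum proteins, summed to between 64162 and 112153 in RasV12 and to between 109779 and 167485 in control libraries. The 7 hemocyte markers found summed to between 117 and 188 in RasV12 and to between 107 and 140 in control libraries. Of the markers tested, 5 of 6 of hemocytes and 2 of 8 of testis were higher, and 1 of 6 of fat body and 1 of 4 of salivary gland were lower, in RasV12 at an unadjusted p under 0.05 in limma's test. None of the 2 midgut and 5 muscle markers tested had such a p, and 9.4% of all genes did. Salivary gland markers summed to 7.36 to 11.7 in RasV12 and to 7.40 to 23.7 in control libraries, and muscle markers to 5.56 to 28.0 in RasV12 and to 24.0 to 65.6 in control libraries. Midgut markers, of which Jon99Ci was at 0 throughout, summed to 1.57 to 1.77 in RasV12 and to 0.289 to 192 in control libraries. The part of these other cells in the results below was not tested. The differences of the components and the counts of called genes were also computed without each library.

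All 7 components were expressed in every library and passed the filter on low values, and none was called. Of all 7575 genes tested, 8 were called (0.106%), with 0.0792% higher and 0.0264% lower in RasV12. Of the components, 1 of 7 had an unadjusted p under 0.05 (ird5), against 9.4% of all genes tested (5.29% higher and 4.11% lower in RasV12). The groups of 1 of 7 components, again ird5, did not overlap, against 14.7% of all genes (7.67% higher and 7.08% lower in RasV12). Both shares are close to those of the whole table. The log2 differences ran from -0.38 (Dredd) to 0.47 (ird5), 5 of them above and 2 below 0, where 50.3% of all genes lay above 0. Their median was 0.04, and the median of all genes tested was 0.00.

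**Figure D1:**
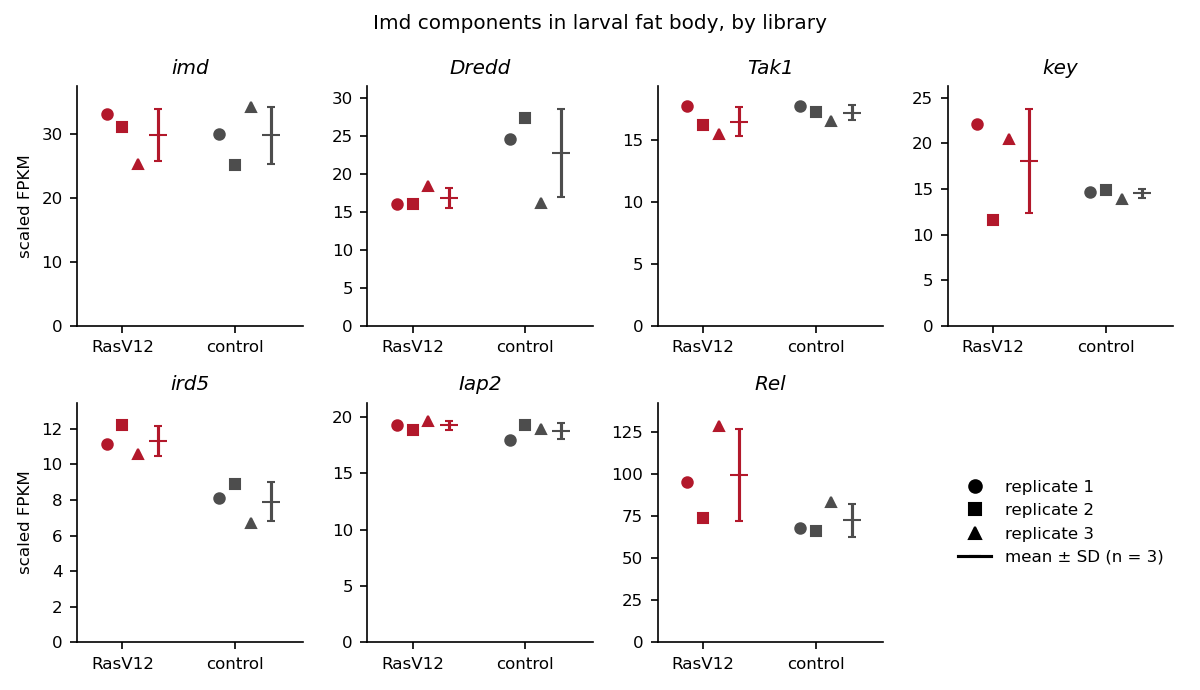
Scaled FPKM of each of the 7 Imd components in the 3 RasV12 (left, red) and 3 control (right, grey) fat body libraries; each panel has its own axis from 0, symbols mark the replicate number and the bars beside them the mean ± SD. The groups overlap in 6 panels, and in that of ird5 the RasV12 values of 10.6 to 12.2 lie above the control values of 6.70 to 8.88.

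The adaptor gene imd (FBgn0013983, 2R, 14297296 to 14301077 on BDGP5) encodes the death domain protein at which the receptors start the signal. It had 33.3, 31.2 and 25.4 scaled FPKM in RasV12 libraries 1, 2 and 3 and 30.01, 25.3 and 34.3 in control libraries 1, 2 and 3. The ranges of the groups lay almost on top of each other. The means were 29.97 ± 4.08 and 29.8 ± 4.51 scaled FPKM in RasV12 and control fat bodies (SD, n = 3 each). The log2 difference was 0.01 (standard error 0.17, limma adjusted p = 0.994), and its 95% interval spans ratios of 0.757 to 1.33. Its locus in the authors' annotation overlaps Dp1 by 1567 bases and GstE9 by 45 bases, both on the opposite strand. In a newer annotation the exons share 0 bases with those of Dp1 and 40 with those of GstE9. Whether the counting used the strand is not given in the sources used here.

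Dredd (FBgn0020381, X, 527553 to 529760) encodes the caspase that cleaves Imd and Relish. It had 16.1, 16.0 and 18.4 scaled FPKM in RasV12 libraries and 24.6, 27.4 and 16.2 in control libraries. Control 3 stood inside the RasV12 range, and the other controls above it. The means were 16.8 ± 1.38 in RasV12 and 22.8 ± 5.83 in control fat bodies (SD, n = 3 each), a log2 difference of -0.38 (standard error 0.21, limma adjusted p = 0.599). The difference turned on control 3, the shallowest library, in which Dredd rested on 68 fragments. Without it the log2 difference was -0.60 (unadjusted p = 0.00645, adjusted p = 0.360 in limma's test), and without control 2 it was -0.24 (adjusted p = 0.903 in limma's test). With the repeat run of control 3 in its place it was -0.44 and with array weights -0.52, with unadjusted p values of 0.0487 and 0.0311 in limma's test. A repeat sequencing run of control 3 gave a Dredd FPKM of 13.8 on 19 fragments, beside 13.1 in the run used here. Both values are without scaling. The low value was thus also read in a second run, but of the same sample and with a counting error of 22.8%. The locus of Dredd overlaps l(1)1Bi on the opposite strand by 114 bases, and the exons share 12 bases in the newer annotation.

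Iap2 (FBgn0015247, 2R, 11819675 to 11822330), also known as Diap2, encodes the ubiquitin ligase that modifies Imd and Dredd. It was the steadiest of the components. Its values were 19.3, 18.8 and 19.6 scaled FPKM in RasV12 libraries and 17.9, 19.3 and 18.9 in control libraries. The means of 19.2 ± 0.372 and 18.7 ± 0.696 (SD, n = 3 each, RasV12 and control) gave a log2 difference of 0.04 (standard error 0.11, limma adjusted p = 0.923) and a 95% interval of ratios of 0.857 to 1.23. Only 0.211% of all genes tested varied less within the groups. Its coefficient of variation was 1.93% among RasV12 and 3.71% among control libraries, below its counting error of 5.51% to 10.6%. So small a spread is therefore not read as a trait of the gene.

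Tak1 (FBgn0026323, X, 20386932 to 20395953) encodes the kinase that feeds both the IKK complex and the JNK branch. It had 17.7, 16.2 and 15.4 scaled FPKM in RasV12 libraries and 17.7, 17.2 and 16.5 in control libraries. The highest values of the groups were alike and the RasV12 values reached slightly lower. The means were 16.4 ± 1.16 and 17.1 ± 0.605 (SD, n = 3 each, RasV12 and control), with a log2 difference of -0.06 (standard error 0.11, limma adjusted p = 0.878) and a 95% interval of ratios of 0.794 to 1.16. In within-group spread it too stood among the lowest of all genes, with 2.03% varying less. Its coefficient of variation was 7.03% among RasV12 and 3.53% among control libraries, beside a counting error of 4.58% to 8.74%. This spread, too, is not read as a trait of the gene.

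key (FBgn0041205, 2R, 20673035 to 20674919), or kenny, encodes the regulatory subunit of the IKK complex, the fly IKKγ. Its values were 22.1, 11.6 and 20.5 scaled FPKM in RasV12 libraries and 14.7, 14.9 and 13.9 in control libraries. RasV12 library 2 lay below every control and the other RasV12 libraries lay above them. The means were 18.1 ± 5.67 in RasV12 and 14.5 ± 0.528 in control fat bodies (SD, n = 3 each), and the log2 difference of 0.25 (standard error 0.24) had a limma adjusted p of 0.737. Without RasV12 library 2 it was 0.52, with an unadjusted p of 0.00987 and an adjusted p of 0.669 in limma's test. Without RasV12 library 1 it was 0.08. The low value in library 2 rested on 127 fragments. The locus of key overlaps CG3589 on the opposite strand by 39 bases, and the exons share 29 bases in the newer annotation. CG3589 averaged 34.3 scaled FPKM in RasV12 and 42.3 in control libraries.

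ird5 (FBgn0024222, 3R, 11872069 to 11875144), named IKKbeta in newer annotations, encodes the catalytic subunit that pairs with Key. It had 11.1, 12.2 and 10.6 scaled FPKM in RasV12 libraries and 8.14, 8.88 and 6.70 in control libraries, and every RasV12 value lay above every control value. The means were 11.3 ± 0.824 and 7.91 ± 1.11 in RasV12 and control fat bodies (SD, n = 3 each), a ratio of 1.43. The log2 difference was 0.47 (standard error 0.14), with an unadjusted p of 0.0127 and an adjusted p of 0.421 in limma's test. By that unadjusted p it ranked 225 among the 7575 genes tested, so that it does not stand apart from the many genes at such a p. Leaving out each library in turn gave log2 differences from 0.37 to 0.55. The lowest value, that of control 3, rested on 38 fragments with a counting error of 16.2%, and its repeat run gave 7.04 FPKM on 15 fragments, beside 5.42 in the run used here.

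Rel (FBgn0014018, 3R, 4869900 to 4873699) encodes Relish, the transcription factor at the end of the pathway. It had 95.3, 74.2 and 128.7 scaled FPKM in RasV12 libraries and 67.98, 65.97 and 83.6 in control libraries. RasV12 libraries 1 and 3 lay above the controls, and RasV12 library 2 lay above controls 1 and 2 but below control 3. The means were 99.4 ± 27.5 in RasV12 and 72.5 ± 9.68 in control fat bodies (SD, n = 3 each), a ratio of 1.37. The log2 difference of 0.42 (standard error 0.23, limma adjusted p = 0.599) has a 95% interval of ratios of 0.913 to 1.96, which includes no change. Each value rested on 656 to 3122 fragments, with a counting error of 1.79% to 3.90%, and the coefficient of variation was 27.7% among RasV12 and 13.3% among control libraries.

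The overlap of the Rel groups turned on the scaling. As deposited, Rel had 97.5, 89.1 and 129.6 FPKM in RasV12 libraries and 66.4, 64.9 and 67.6 FPKM in control libraries, which did not overlap. Without scaling the log2 difference was 0.64 (unadjusted p = 0.0084, adjusted p = 0.331 in limma's test), but the median of all genes then also lay at 0.20. Iap2, too, did not overlap as deposited, with 19.7 to 22.6 FPKM in RasV12 and 15.3 to 18.97 FPKM in control libraries. Nor did ird5, with 10.7 to 14.7 FPKM in RasV12 and 5.42 to 8.73 FPKM in control libraries. The share of all genes that did not overlap as deposited was not computed. These separations are therefore not read as a result about the members. A comparison within each library avoids the choice of a scaling. Relative to the mean log2 FPKM of the other 6 components, Rel stood at 2.34, 2.15 and 2.86 in RasV12 libraries and at 1.96, 1.90 and 2.39 in control libraries. The groups overlapped, and the difference of 0.37 gave an exact two-sided permutation p of 0.3, where 0.1 is the smallest that 3 libraries against 3 can give. This comparison was added after the data were seen. Without RasV12 library 3 the log2 difference of Rel was 0.22, and without RasV12 library 2 it was 0.61 (unadjusted p = 0.0281, adjusted p = 0.857 in limma's test). The locus of Rel lies within that of Nmdmc on the same strand, although the exons share 0 bases in the newer annotation. Nmdmc had 55.2, 65.3 and 16.2 scaled FPKM in RasV12 and 41.4, 31.9 and 45.4 in control libraries, so it was lowest in the library in which Rel was highest.

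**Figure D2:**
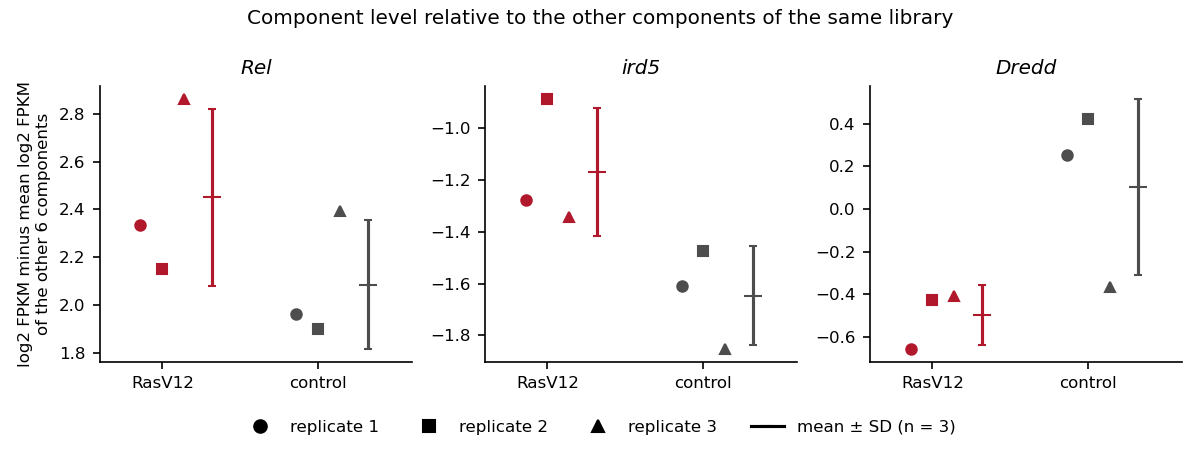
Level of Rel, ird5 and Dredd relative to the other components of the same library, as log2 FPKM minus the mean log2 FPKM of the other 6 components, in 3 RasV12 (left) and 3 control (right) libraries, with the mean ± SD beside the symbols; the axes do not start at 0. For Rel the RasV12 values of 2.15 to 2.86 overlap the control values of 1.90 to 2.39, for ird5 the groups do not overlap, and for Dredd control 3 at -0.37 lies with the RasV12 values of -0.66 to -0.41.

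The makeup of the 7 components was also read within each library. Rel held 44.3%, 41.2% and 53.9% of their summed scaled FPKM in RasV12 libraries and 37.5%, 36.9% and 44.0% in control libraries. ird5 stood at -1.28, -0.89 and -1.34 relative to the mean log2 FPKM of the others in RasV12 libraries and at -1.61, -1.47 and -1.85 in control libraries, again with no overlap. Dredd stood at -0.66, -0.43 and -0.41 in RasV12 and at 0.25, 0.42 and -0.37 in control libraries. The subunits of the IKK complex did not keep one ratio: ird5 over key was 0.503, 1.05 and 0.517 in RasV12 libraries and 0.553, 0.595 and 0.481 in control libraries. RasV12 library 2, with the highest ird5 and the lowest key, was the one that departed.

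The components covered a wide range of levels, with Rel far above the rest. Over the 6 libraries Rel averaged 85.9 ± 25.3 FPKM (SD), above 86.6% of all genes tested. It was followed by imd at 29.8 ± 4.98, Dredd at 19.7 ± 5.04, Iap2 at 19.0 ± 2.45, Tak1 at 16.8 ± 2.12, key at 16.3 ± 4.39 and ird5 at 9.80 ± 3.18 FPKM. The order between imd and ird5 differed by group, with Iap2 at 20.7, key at 19.1, Dredd at 18.1 and Tak1 at 17.7 FPKM in RasV12 libraries and Dredd at 21.4, Iap2 at 17.3, Tak1 at 15.9 and key at 13.4 FPKM in control libraries. In both groups Rel and imd stood first and ird5 last. The catalytic subunit of the IKK complex was thus the component with the lowest RNA level, and the factor it acts on had the highest. Rel exceeded imd in 6 of 6 libraries, by 1.46 on the log2 scale (exact sign-flip permutation p = 0.03125, adjusted over 6 neighbouring pairs 0.09375). Iap2 exceeded Tak1 in 6 of 6 libraries by 0.17, with the same p values. The smallest p that 6 libraries allow is 0.03125, and no step of this order passed 0.05 after adjustment. imd lay above Dredd by 0.59 and key above ird5 by 0.69, each in 5 of 6 libraries (exact sign-flip permutation p = 0.0625, adjusted 0.09375). Dredd against Iap2 (0.03, higher in 2 of 6 libraries, exact permutation p = 0.875) and Tak1 against key (0.07, higher in 4 of 6 libraries, exact permutation p = 0.625) did not differ beyond their spread, so that the order of these neighbours is not settled.

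The profiles of the components over the 6 libraries were also compared with each other and with all other genes tested, by the root mean square difference of log2 values after each gene's mean was removed. Among the components Tak1 and Iap2 were most alike (0.0931) and Dredd and Rel least alike (0.546). The most similar other genes were CG18619 (0.0331) and CG17082 (0.0401) for imd, CG8064 (0.0556) and CG10882 (0.0602) for Dredd, and CG12050 (0.0320) and Elf (0.0352) for Tak1. For key they were jdp (0.120) and CrebA (0.121), for ird5 CG5933 (0.0615) and CG32786 (0.0697), and for Iap2 CG6664 (0.0173) and SH3PX1 (0.0260). Rel was closest to Cyp12e1 (0.0792) and CG31648 (0.116). All genes were read in the same 6 libraries, and the distances are a description.

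Other genes of the pathway were read from a list of 27 regulators, of which 24 passed the filter (PGRP-LA, cad and nub did not). None was called, 13 had a log2 difference above 0 and 11 below, and the median was 0.04, as it was for the components. Of all genes tested, 50.3% lay above 0. PGRP-LF, among the 13, was at 0 in the controls and passed the filter only through RasV12 library 3, which set its direction. Tab2, the partner of Tak1 that binds ubiquitin chains, was the only regulator with an unadjusted p under 0.05 in limma's test, against 9.4% of all genes. Without scaling the count was 5 of 24, against 11.8% of all genes. With a library left out it was 0 to 3, against 5.11% to 16.7% of all genes. Tab2 had 18.7, 17.3 and 14.2 scaled FPKM in RasV12 and 14.5, 11.4 and 10.7 in control libraries, a log2 difference of 0.43 (standard error 0.17, limma adjusted p = 0.531). The groups overlapped, since RasV12 library 3 lay below control 1. The peptidoglycan receptor PGRP-LC, which starts the signal at the membrane, had 19.9, 21.3 and 15.8 in RasV12 and 15.1, 16.1 and 13.6 in control libraries. Its log2 difference was 0.32 (standard error 0.15, limma adjusted p = 0.567) and its groups overlapped as well. PGRP-LE, the intracellular sensor, had a difference of -0.04, and BG4, the adaptor Fadd between Imd and Dredd, one of -0.21. None of the 5 genes of the JNK branch (hep, bsk, Jra, kay and puc) had an unadjusted p under 0.05.

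The 9 inhibitors among the regulators were 4 above and 5 below 0, with a median log2 difference of -0.11 and none at an unadjusted p under 0.05. The 3 largest differences of the whole list, of pirk, PGRP-LF and PGRP-LB, had their highest value in RasV12 library 3. pirk, which removes receptors from the membrane, had 2.61, 5.00 and 27.9 scaled FPKM in RasV12 and 1.32, 6.73 and 0.759 in control libraries. PGRP-LB, a peptidoglycan amidase, had 13.3, 9.13 and 54.6 in RasV12 and 8.21, 14.4 and 7.70 in control libraries. For pirk and PGRP-LB the other 2 RasV12 libraries overlapped the controls. PGRP-LF, a receptor that blocks PGRP-LC, was listed at 0 in 5 libraries and at 18.8 scaled FPKM in RasV12 library 3, on 155 fragments. Its locus overlaps the more abundant UGP by 623 bases, and its 0 is not read as absence. The limma log2 differences of pirk and PGRP-LB were 1.44 (adjusted p = 0.625) and 0.90 (adjusted p = 0.662). Of 24 regulators, 3 had control values that all lay above the RasV12 values (12.5%, against 7.08% of all genes tested) and 0 the reverse. These were casp, dnr1 and POSH, 3 of the 9 inhibitors, named after their values were seen. dnr1 had the largest of these differences, with 2.43, 6.61 and 6.59 scaled FPKM in RasV12 and 11.2, 8.50 and 6.84 in control libraries (log2 difference -0.73, limma adjusted p = 0.567).

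**Figure D3:**
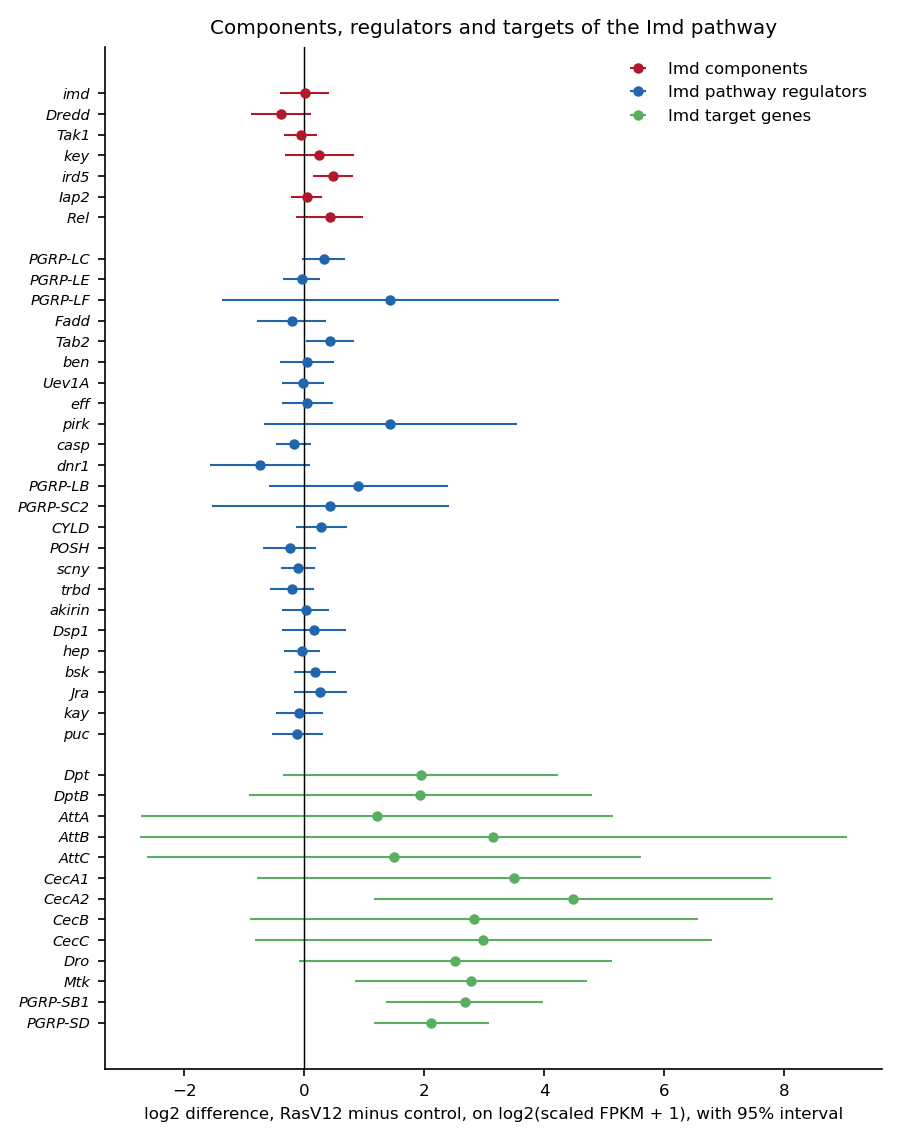
Log2 difference (RasV12 minus control, on the log2(scaled FPKM + 1) scale) with its 95% interval from limma for the 7 components, the 24 regulators tested and the 13 target genes tested of the Imd pathway. The components lie between -0.38 (Dredd) and 0.47 (ird5). Their intervals reach from -0.88 to 0.97, and only that of ird5 leaves out 0. Most regulators lie near 0. The intervals of the components and of most regulators are shorter than those of the targets. The targets lie between 1.21 and 4.49 with wide intervals, most of which include 0. The targets AttB, CecA2 and CecB and the regulator PGRP-LF passed the filter only through RasV12 libraries.

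The target genes, at the end of the pathway, were read in the same way. The list is not exclusive to Imd, since the authors describe CecA1 as controlled by the Toll pathway as well. Of the 15 targets 13 passed the filter (AttD and Def did not), but AttB, CecA2 and CecB, with controls at 0 or on at most 3 fragments, passed it only through RasV12 libraries, which set their direction. This left 10 targets whose control values alone passed, a choice made after the data were seen. None was called by limma. All 10 had a log2 difference above 0, from 1.21 to 3.49 with a median of 2.32, 3 of 10 had an unadjusted p under 0.05, against 9.4% of all genes, and in 5 of 10 the RasV12 values all lay above the control values, against 7.67% of all genes. Of these genes, CecA1, CecC and Dro rested on at most 6 fragments in any control library. CecA1, which gave the value of 3.49, was at 0 in control 1. The values of the 10 targets depended on single libraries and settings. The 3 genes became 8 without RasV12 library 2, where 5.40% of all genes had such a p. They became 6 with a replicate block (6.98% of all genes) and 5 without scaling (11.8% of all genes). Without RasV12 library 3, the library with the highest target levels, 8 of 10 lay above 0 with a median of 1.23. PGRP-SD, a secreted peptidoglycan recognition protein, had 165, 166 and 299.9 scaled FPKM in RasV12 and 28.1, 45.4 and 74.0 in control libraries. Its log2 difference was 2.12 (standard error 0.40, limma adjusted p = 0.229). PGRP-SB1, a secreted amidase, had 430, 288 and 1146 in RasV12 and 79.2, 53.9 and 124 in control libraries, with a log2 difference of 2.67 (standard error 0.55, limma adjusted p = 0.243). The antimicrobial peptide gene Mtk had 418, 132 and 1260 in RasV12 and 50.2, 39.5 and 104 in control libraries, and its log2 difference was 2.78 (standard error 0.81, limma adjusted p = 0.421). CecA2 had 23.8, 3.73 and 275 in RasV12 libraries and at most 2 fragments in any control library.

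Set beside the targets, the level of Rel moved within a narrow range. The 15 targets summed to 1386, 747 and 8740 scaled FPKM in RasV12 libraries 1, 2 and 3 and to 285, 316 and 467 in control libraries 1, 2 and 3. RasV12 library 3 had the highest value of 14 of the 15 targets, and of all 10 whose controls alone passed the filter. Of all 7575 genes tested, 1034 were highest in that library. RasV12 library 3 also had the highest Rel, while RasV12 library 2 had the lowest sum and the lowest Rel of its group. Within the controls, control 3 had both the highest sum and the highest Rel. Control 3 (Rel 83.6, target sum 467) nevertheless lay below RasV12 library 2 (74.2 and 747) in the target sum and above it in Rel. This order of Rel turned on the scaling, since as deposited Rel had 67.6 FPKM in control 3 and 89.1 FPKM in RasV12 library 2. The sum rests mostly on the most abundant targets, in RasV12 library 2 PGRP-SB1 (288), PGRP-SD (166) and Mtk (132). In that library AttA, AttC, CecA1, CecB and CecC lay below control 3, AttB was at 0 in both, and the other targets lay above control 3. The libraries form 2 separate groups of 3, so no correlation across them is given.

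**Figure D4:**
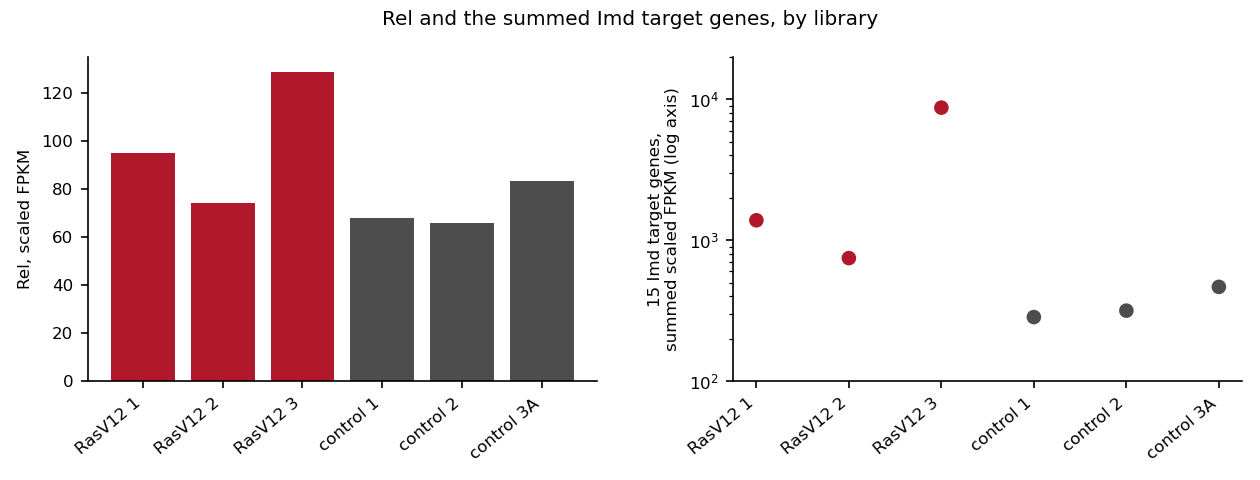
Left, scaled FPKM of Rel in each library (bars from 0); right, summed scaled FPKM of the 15 Imd target genes in the same libraries (points, log axis), with RasV12 libraries left of control libraries in each. The target sums, which rest mostly on the most abundant targets, do not overlap between RasV12 (747 to 8740) and control (285 to 467) libraries. Rel at 74.2 in RasV12 2 lies below control 3A at 83.6 after scaling, but not as deposited (89.1 and 67.6 FPKM).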

How the data were processed

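The authors mapped 100 bp paired reads with TopHat 1.0.14, removed duplicates and deposited, for each library, FPKM from Cufflinks 0.0.5 with their confidence bounds, on the Ensembl annotation of BDGP5. Locus starts, which the tables count from 0, are given counted from 1. A newer annotation (BDGP6) served only to match names and exons. Control 3 is run 3A, since the table labelled as merged equals run 3A times 0.770 (within 1%) for 94.3% of 6869 genes. Fragments were worked out from the bounds. FPKM were scaled by the 75th percentile, filtered at a mean of at least 1 and tested on log2(scaled FPKM + 1) with limma 3.58.1 (lmFit, eBayes with trend) in R 4.3.3, which was also tested on simulated data. No count model was used. Intervals are at 95%, and counting errors cover counting only. Of 82 listed names 79 were matched by symbol and 2 by the newer annotation.

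The members and lists were chosen with earlier results of these data known. Named were the members, listed genes with an unadjusted p under 0.05, otherwise the 3 largest differences per list, and the 2 nearest profiles per member. Genes outside this rule (PGRP-LC, PGRP-LE, BG4, the JNK branch, casp, dnr1 and POSH) were named for their place in the pathway or after their values were seen. The alternatives changed the pseudocount, filter, scaling, run of control 3, eBayes, weights or replicate block, or left out each library.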

Additional observations from a re-analysis of the deposited data

How the results depend on the processing

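None of the components, regulators or targets was called in any of the 17 alternatives. ird5 stayed above 0 (0.33 to 0.67) with an unadjusted p under 0.05 in 16 of them, all but the one without RasV12 library 2. Its limma adjusted p ranged from 0.223 to 0.899. Between 5.11% and 16.7% of all genes had such an unadjusted p, depending on the alternative. The alternatives reuse the same samples, so their number is not repeated support. Rel (0.22 to 0.64), key (0.08 to 0.52) and Dredd (-0.60 to -0.17) kept their sign. The number of genes called, 8, was 5 with 5 added in place of 1, 5 with run 3B, 16 with array weights and 5 to 61 with a library left out, the most without RasV12 library 3 and 13 without control 3. The replicate block called 3 genes. Libraries of the same number had correlations of 0.09, -0.17 and -0.15, but 3 libraries per group are too few to tell whether the numbers pair them. The median of the components, 0.04, was 0.25 without scaling (all genes 0.20), 0.11 with array weights and 0.0149 to 0.115 with a library left out. Differences near 0 changed sign: Tak1 was 0.15 without scaling (-0.05 relative to the median of all genes) and 0.0160 with run 3B, Iap2 was -0.0290 with run 3B, and imd lay from -0.10 to 0.12 with a library left out. In the order of levels, Tak1 minus key was -0.0469 with run 3B and -0.00431 to 0.164, and Dredd minus Iap2 was -0.0656 to 0.0813, with a library left out. The cause was not tested. A group left with 2 libraries was assumed to vary like the other. In control 3, the shallowest library, Dredd, key and ird5 rested on 38 to 68 fragments.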
